A study of Rattus norvegicus with 14 samples.

Results

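Heat plus exercise training was compared with exercise training alone in the left ventricle of the heart and in the soleus of rats. The samples were chosen by their labels as the 8 exercised ones of 14 in the series, 4 with heat and 4 without. In the combined groups, rats trained on a treadmill at 24°C and were acclimated to heat at 34°C, both for 3 days (short) or for 1 month (long). In the exercise-only groups, rats were trained at 24°C for 3 days or for 1 month. The labels do not say whether heat and training overlapped within a day, nor the strain, sex or age of the rats. Every sample thus shares exercise training, and each combined sample has 1 exercise-only partner of the same tissue and duration, which gives 4 pairs. Per the labels, 3 pools were prepared for each group with 6 animals mentioned, but each group has 1 column of values, so no sample has a replicate of its own.

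Heat acclimation is the slow adjustment of body and organs to sustained warm surroundings. It is known for raising the reserve of heat shock proteins, which keep other proteins folded, and for changing calcium handling and energy use in the heart. Endurance training acts on the same organs and is known for increasing the mitochondria of working skeletal muscle. The soleus is a postural muscle of the hind leg made mainly of slow, oxidative fibres, and the left ventricle is the main pumping chamber of the heart. The comparison asks what heat adds to the expression profile of muscle that is already being trained.

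The arrays carried 1185 probes, which the sources used here do not pair with genes, so probes are given by their identifiers and no gene or pathway can be named. Values are intensities in arbitrary units, and a probe was called measured at 1200 or more, under which the deposited cells are empty. Every sample measured 416 of the 1185 probes, and 61 were measured in none. The tissue labels could not be checked against marker genes. Samples of the same tissue ranked the 416 probes more alike (rank correlations 0.82 to 0.914 in 12 pairs of samples) than samples of different tissues did (0.703 to 0.793 in 16 pairs). Probes are not replicates, so these values only describe the arrays.

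Fewer probes were measured with heat than without it in each of the 4 pairs, but the differences ran from a handful of probes in long-trained heart to over 100 in short-trained soleus. In heart, the short combined sample had 692 measured probes against 711 after short exercise. The long combined heart sample had 747 against 752 after long exercise. In soleus, the short combined sample had 623 against 755 after short exercise, and the long combined sample 897 against 945 after long exercise. The mean was 740 ± 116 (SD, n = 4) with heat and 791 ± 105 (SD, n = 4) without, a mean paired difference of -51 ± 56.9 probes. The exact two-sided permutation test over the 4 pairs gave p = 0.13, which is the smallest p that 4 pairs allow. Without the short soleus pair the mean difference was -24 probes. At a limit of 2400 the number was lower with heat in 3 of 4 pairs.

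The soleus short pair also had the widest gap in overall brightness. Over the 416 common probes, the median deposited intensity was 3496 in the short combined soleus sample and 5431 in its exercise-only partner, a ratio of 0.644. In the other pairs the ratio was 0.974 (heart short), 0.862 (heart long) and 1.06 (soleus long). The part of array brightness in the count of measured probes was not tested.

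**Figure D1:**
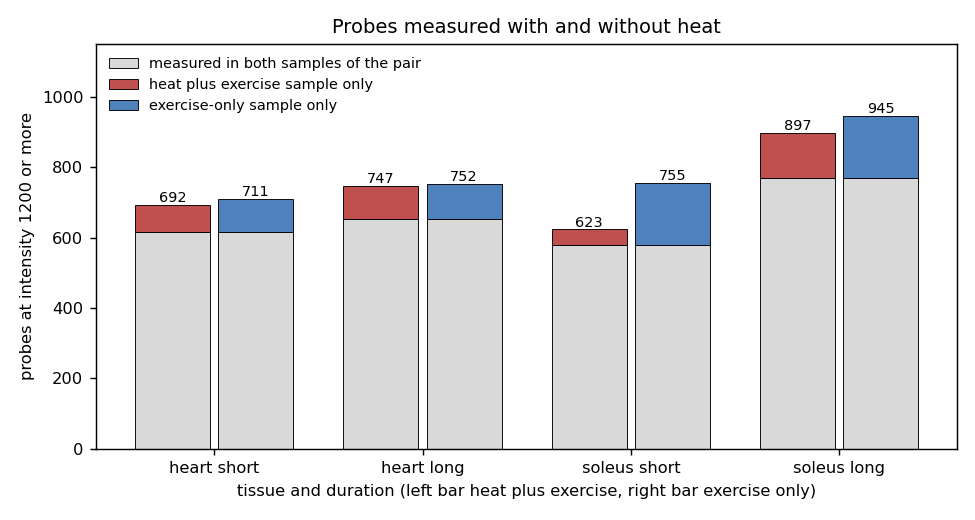
Bars give the number of probes at an intensity of 1200 or more in each sample, split into probes measured in both samples of a pair (grey) and in 1 of them only (colour). The left bar of each pair is the heat plus exercise sample, and it is lower than the right, exercise-only bar in each of the 4 pairs, most in short-trained soleus (623 against 755).

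The net difference hid a larger exchange of probes near the limit. A probe is called gained when it was measured in the combined sample but not in its exercise-only partner, and lost in the reverse case. In short-trained heart 77 probes were gained (6.5% of 1185) and 96 lost (8.1%), and in long-trained heart 95 (8.02%) and 100 (8.44%). In short-trained soleus 45 were gained (3.8%) and 177 lost (14.9%), and in long-trained soleus 129 (10.9%) and 177 (14.9%). Gained or lost probes made up 22% to 28.5% of the probes measured in at least 1 sample of a pair.

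Most of the exchanged probes lay close to the limit. The median intensity of gained probes was 1705 to 2109 and that of lost probes 1567 to 1901 over the 4 pairs, against medians of 2928 to 3749 in combined and 3166 to 4570 in exercise-only samples for probes measured in both. Only 101 of the 346 gains and 135 of the 550 losses involved an intensity of 2400 or more. No probe was gained in 4 of 4 pairs and none was lost in 4 of 4. Gains recurred in 3 pairs for 7 probes, 4 of which were lost in no pair. Losses recurred in 3 pairs for 16, 12 of which were gained in no pair.

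Probe R021 was the brightest of the probes measured most often with heat and least often without it. Its deposited intensity was 2255 (heart short), 1900 (heart long), 4116 (soleus short) and 2995 (soleus long) in the combined samples, against 2253 in short-exercised soleus and no measured value in the other 3 exercise-only samples. R645 had 2010, 1642, 2701 and 3547 in the combined samples in the same order, against 2820 in long-exercised soleus only. Both were thus measured in 4 of 4 combined samples and 1 of 4 exercise-only samples.

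In the opposite direction, R255 was measured in no combined sample, against 2804 in short-exercised heart, 3029 in long-exercised heart and 2957 in long-exercised soleus. R433 was also measured in no combined sample, against 2488, 2863 and 1395 in the same 3 exercise-only samples. In the short soleus pair neither of these 2 probes was measured with or without heat.

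How far heat moved the profile was set beside the other 2 factors of the same 8 samples, over the 416 probes measured in all of them. The SD of the log2 ratio between partners that differ only by heat was 0.361 in short-trained heart, 0.396 in long-trained heart, 0.391 in short-trained soleus and 0.476 in long-trained soleus. Partners that differ only by duration had SDs of 0.365 to 0.494, and partners that differ only by tissue 0.609 to 0.658. Heat pairs and duration pairs thus overlapped, and both lay below the tissue pairs. Rank correlations gave the same order, with 0.867 to 0.914 between heat partners, 0.834 to 0.905 between duration partners and 0.734 to 0.785 between tissue partners. With no repeat arrays of 1 condition, how much of the spread between heat partners would appear between repeats is unknown.

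**Figure D2:**
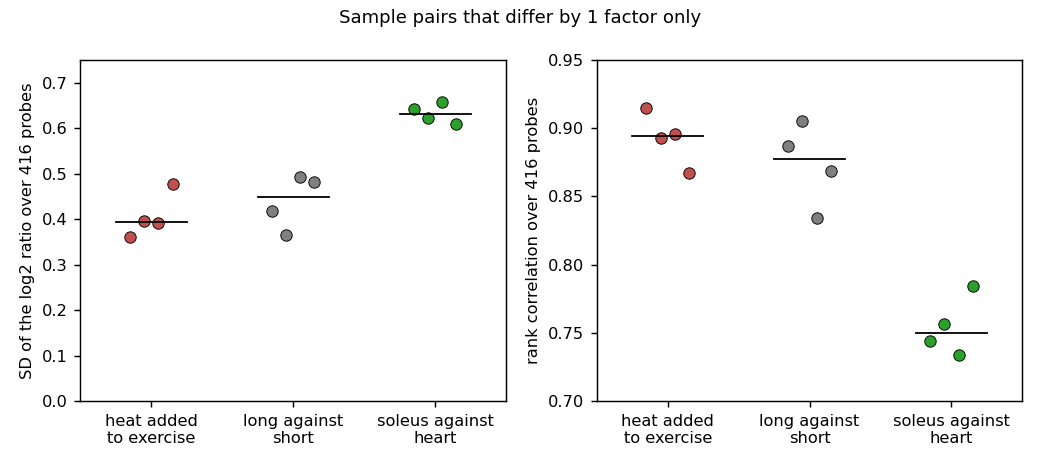
Each point is a pair of exercised samples that differ by 1 factor only (4 pairs per factor), and the line is the median of the 4. The left panel gives the SD of the log2 ratio and the right panel the rank correlation over 416 probes, on an axis that does not start at 0. Heat pairs (SD 0.361 to 0.476) overlap duration pairs, and tissue pairs (0.609 to 0.658) stand apart.

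At least 2-fold differences were then counted in each pair, among probes measured in both partners and on quantile-normalized intensity. With 1 sample on each side there is no test. In long-trained soleus 45 probes were higher with heat (5.86% of 768 compared) and 33 lower (4.3%). In long-trained heart 20 were higher (3.07% of 652) and 15 lower (2.3%). The short pairs had fewer, with 6 higher (0.976% of 615) and 12 lower (1.95%) in heart, and 12 higher (2.08% of 578) and 2 lower (0.346%) in soleus. The long soleus pair had the highest count also on the 416 common probes, 28 against 6 to 14 in the other pairs, on the same normalized values. With 1200 added to each intensity before the log, the pairs came close together. The long soleus pair then had 9 (1.17%), against 5 (0.813%) in short heart, 6 (0.92%) in long heart and 6 (1.04%) in short soleus.

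The order of the pairs and the direction of 2 of the counts depended on the scaling. Without normalization the short soleus pair had the most 2-fold differences, 77 (13.3%) against 59 (7.68%) in long soleus. Of those 77, 3 were higher and 74 lower, in the pair with the widest brightness gap, and the long heart pair then had 12 higher and 18 lower. The direction of the short heart and long soleus counts held under median scaling and without normalization.

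In long-trained soleus, R493 had a normalized intensity of 5443 with heat and 1503 without, and RG281 had 4862 with heat and 1446 without. RG093 had 1323 with heat and 3692 without, and RG485 1227 with heat and 3375 without. These are differences of 2.75-fold to 3.62-fold in which the lower value lay near the detection limit each time.

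In long-trained heart, RG470 had 10737 with heat and 1875 without, a 5.73-fold difference, and R391 had 5952 with heat and 1782 without. R334 had 1601 with heat and 4983 without, and R400 1988 with heat and 5800 without. RG470 showed the largest ratio of the heart pairs.

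In short-trained soleus, R169 had 11938 with heat and 1973 without, a 6.05-fold difference and the largest of the 4 pairs after normalization. R532 had 8768 with heat and 2731 without. On the lower side the normalized differences were barely 2-fold, with R206 at 3128 with heat and 6489 without, and R655 at 3878 with heat and 7803 without. As deposited, R169 had 9373 with heat and 2187 without. R206 had 2398 with heat and 7233 without, and R655 had 2920 with heat and 8255 without. The size of these ratios thus depended on the scaling.

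In short-trained heart, R355 had 7464 with heat and 2325 without, and R289 had 5013 with heat and 2117 without. RG470 had 2102 with heat and 7012 without, and RG066 5568 with heat and 16115 without. In heart, RG470 was therefore 5.73-fold higher with heat at the long duration and 3.34-fold lower at the short one. In soleus its deposited intensity was near the limit, at 1649 with heat and 1360 without at the long duration, and at no measured value with heat and 1275 without at the short duration.

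Few probes differed 2-fold in more than 1 pair. Of 138 probes that did so in any pair, 1 was higher in 2 pairs, 3 were lower in 2 pairs and 3 went opposite ways in 2 pairs. The following probes are named after their values were seen. R532 was higher in both soleus pairs, at 8768 with heat and 2731 without when short, and at 3981 with heat and 1963 without when long. RG485 was lower in both long pairs, at 1598 with heat and 3878 without in heart and at 1227 with heat and 3375 without in soleus. R036 was lower in short-trained heart (1858 with heat, 4094 without) and in long-trained soleus (1303 with heat, 3111 without). RG301 was lower in the same 2 pairs, at 2724 with heat and 5548 without in heart, and at 2246 with heat and 4983 without in soleus. Its log2 ratio was -0.0083 in long-trained heart and 0.0092 in short-trained soleus.

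The 4 pairs shared little of their direction. The pairs have no sample in common, though the labels do not say whether heart and soleus pairs share rats. Across the 416 probes, the log2 ratios of the short and long pair had a Pearson correlation of 0.199 in heart and of 0.178 in soleus. Between tissues it was 0.0622 for the short pairs, -0.0299 for the long pairs, 0.156 for short heart with long soleus and -0.0328 for long heart with short soleus. The within-tissue values were thus little above the highest one between tissues. These are descriptions across probes, which share an array. The sign of the ratio was shared by 56.7% of probes between the heart pairs and by 56% between the soleus pairs, and by 47.6% to 56.7% in the 4 pairings across tissues.

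In all 4 pairs, 37 probes were higher and 40 lower with heat, 77 of 416 (18.5%). Of these, 4 differed by at least 1.2-fold in each pair, 1 higher and 3 lower, and 0 by at least 1.5-fold. The higher one was R680. Among the lower ones were RG026 and RG092, whose smallest log2 difference over the pairs was 0.376 in size for each.

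**Figure D3:**
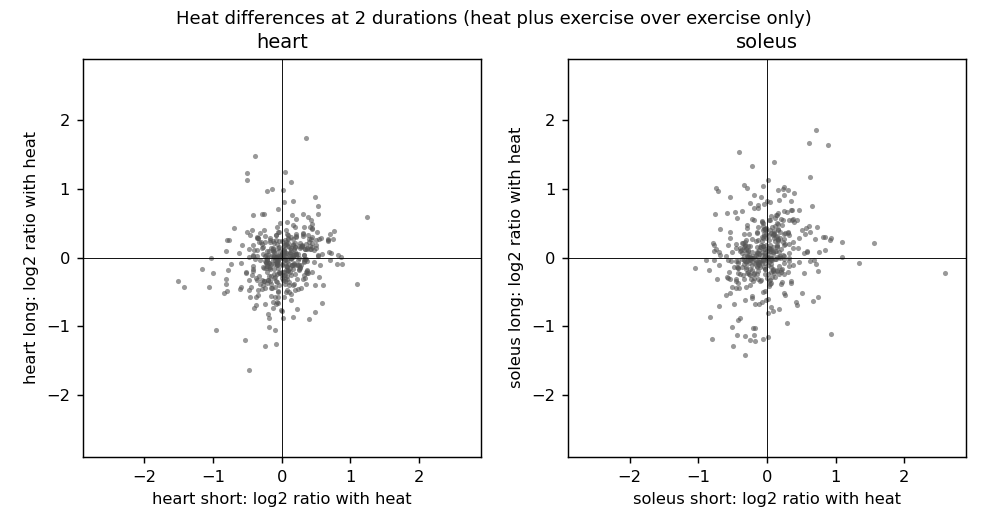
Each point is 1 of 416 probes measured in all 8 samples, placed by its log2 ratio of heat plus exercise over exercise only in the short pair (horizontal) and the long pair (vertical) of heart (left) and soleus (right). The clouds are nearly round, with Pearson correlations of 0.199 in heart and 0.178 in soleus.

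Heat was tested over the 4 pairs with limma, with tissue and duration as a block and 640 probes tested. No probe passed a Benjamini-Hochberg adjusted p of 0.05 (0 of 640, 0%, lowest limma adjusted p 0.548). At an unadjusted p of 0.05, 54 probes passed (8.44%), 23 higher and 31 lower with heat. This count was 32 without the short heart pair and 38 to 55 without any 1 of the other pairs. The effects ran from -0.76 to 0.77 on the log2 scale, with a median size of 0.156 and a median standard error of 0.163, so no mean effect reached 2-fold. For 579 probes (90.5%) the 95% interval of the single probe lay within a 2-fold change in either direction, and for 339 (53%) within a 1.5-fold change. These intervals are not adjusted for the number of probes, and values raised to the floor narrow them.

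The same fit on the same probes was used for the other factors. It called 63 of 640 probes (9.84%) for tissue, 35 higher and 28 lower in soleus, and 0 of 640 (0%) for duration, for which 55 passed an unadjusted p of 0.05. At this number of samples the fit therefore made calls for tissue and made none for heat or duration. Samples of the same tissue differ in treatment or duration and thus came from different rats. The labels do not say whether heart and soleus samples of the same treatment and duration came from the same rats. If they did, the heart and soleus pairs of the same duration are not independent, here or in the permutation test of measured probes. The p-values therefore reflect only how much these samples differ.

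**Figure D4:**
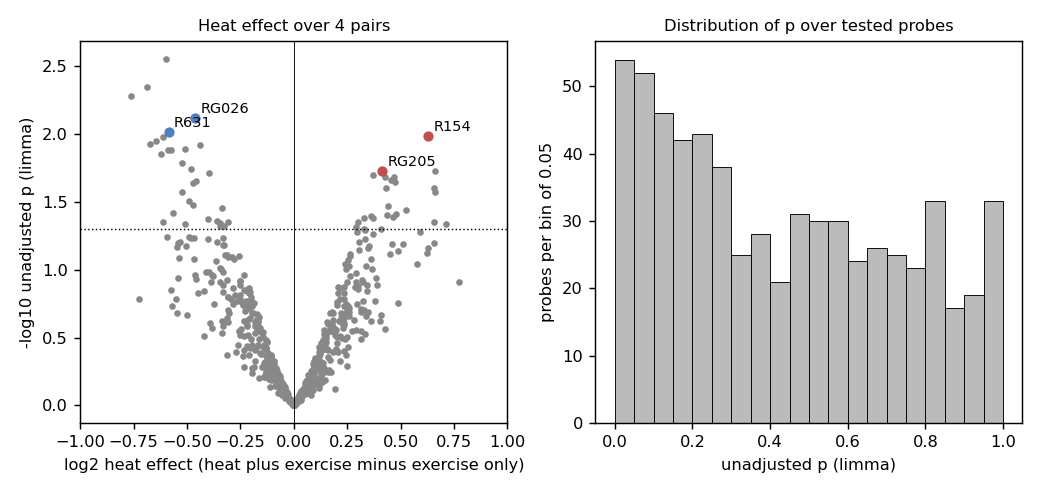
The left panel plots the log2 heat effect of 640 probes (heat plus exercise minus exercise only) against -log10 of the unadjusted limma p, with a dotted line at p of 0.05 and the 4 probes described in the text in colour. The right panel gives the number of probes in each p bin, with 54 in the lowest one. No probe passed after adjustment.

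None of the following probes passed the adjusted threshold, and they are given as values. They are the 2 probes per direction with the lowest p among those measured in all 8 samples. RG026 was the most even of them. Its normalized intensity was 4082 (heart short), 3656 (heart long), 4011 (soleus short) and 4011 (soleus long) with heat, against 5297, 5443, 5500 and 5461 in the exercise-only partners. The 4 combined samples lay together below the 4 exercise-only samples without overlap, and neither tissue nor duration set them apart. The log2 effect was -0.46 ± 0.12 (SE, limma adjusted p = 0.548).

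R631 was also lower with heat in 4 of 4 pairs, with 3320, 2503, 2390 and 4510 in the combined samples against 3810, 4419, 3216 and 8419 in their partners. Here the groups overlapped, and the long soleus pair had the highest value of both groups. The log2 effect was -0.59 ± 0.16 (SE, limma adjusted p = 0.548), and -0.31 in the short pairs alone.

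On the higher side, R154 had 4587, 3800, 2656 and 4002 with heat, against 3244, 3181, 1744 and 1257 without. It was higher in 4 of 4 pairs, most in long-trained soleus, where its exercise-only value lay near the detection limit. The log2 effect was 0.63 ± 0.18 (SE, limma adjusted p = 0.548), with the 2 exercise-only soleus values raised to the floor of 1774, and 0.38 in heart alone.

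RG205 had 4934, 5461, 2965 and 4057 with heat, against 3311, 4465, 2524 and 2769 without, and was higher in 4 of 4 pairs. The tissues differed more than the treatments, with the combined short soleus sample lower than both exercise-only heart samples. The log2 effect was 0.41 ± 0.13 (SE, limma adjusted p = 0.548). As deposited, before normalization, the short soleus value was 2307 with heat and 2900 without, so this pair turned with the scaling, and without normalization the effect was 0.24.

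**Figure D5:**
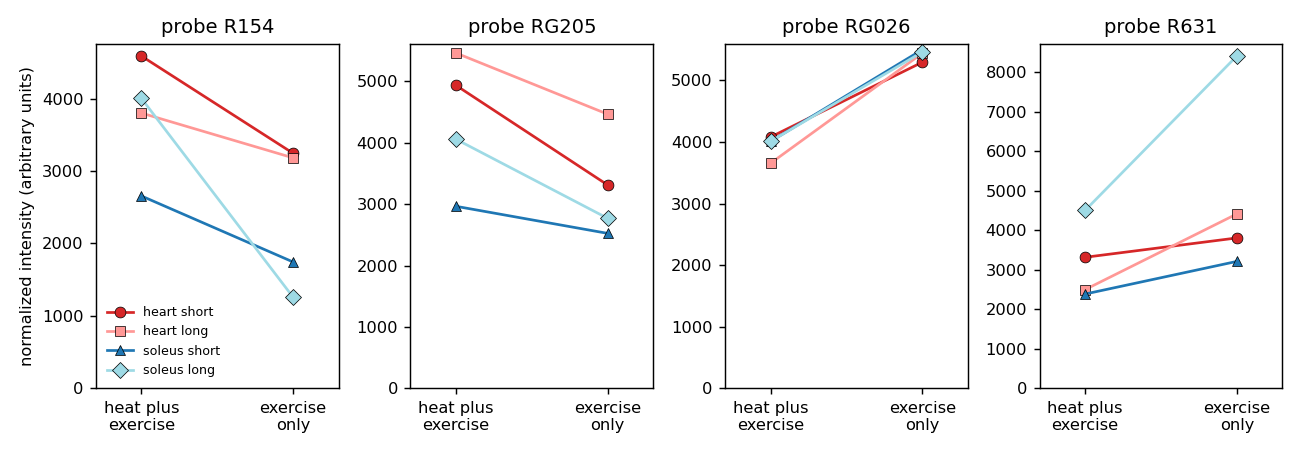
Each panel shows 1 probe, with its normalized intensity in the heat plus exercise sample (left) and in the exercise-only sample (right) of each pair joined by a line. R154 and RG205 are higher, and RG026 and R631 lower, with heat in 4 of 4 pairs, and none passed the adjusted threshold.

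Whether heat acted differently in the 2 tissues was tested as the difference of its effect between soleus and heart. No probe passed (0 of 640, 0%, lowest limma adjusted p 0.676), and 34 had an unadjusted p under 0.05 (5.31%). That count was 65 without the short soleus pair and 24 to 48 without any 1 of the other pairs. The median standard error of the difference was 0.29, and the 95% interval lay within a 2-fold difference for 39.7% of probes, so the tissue comparison is less precise than the effect over all pairs.

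R720 had the lowest p among probes measured in all 8 samples. In soleus it had 3741 (short) and 5395 (long) with heat, against 2014 and 1733 without. In heart it had 2578 and 1405 with heat, against 3398 and 2340 without. It was thus higher with heat in both soleus pairs and lower in both heart pairs, a difference of 1.65 ± 0.32 (SE, limma adjusted p = 0.676).

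RG141 was 2770 and 2410 with heat in soleus, against 1858 and 2269 without, and 3230 and 1751 with heat in heart, against 6306 and 3640 without. RG534 ran the other way, with 1880 and 2694 with heat in soleus against 3341 and 4880 without, and 3829 and 3836 with heat in heart against 3136 and 3414 without. RG342 had 2147 and 1702 with heat in soleus, against 2875 and 1976 without, and 4782 and 3086 with heat in heart, against 2832 and 2364 without. Each of these 3 went one way in both pairs of a tissue and the other way in both pairs of the other tissue, with differences of 1.33, -1.07 and -0.86 on the log2 scale (limma adjusted p = 0.676 for each). The 1751 of RG141 and the 1702 of RG342 were raised to the floor in the fit.

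Whether heat acted differently after 1 month than after 3 days was tested in the same way. No probe passed (0 of 640, 0%, lowest limma adjusted p 1), and 10 had an unadjusted p under 0.05 (1.56%), a count that was 17 to 39 with any 1 pair left out. When the tissue difference was fitted in the same model, which leaves 1 residual degree of freedom, 1 probe passed, RG470, the probe with opposite 2-fold differences in the heart pairs (limma adjusted p = 0.00129, difference 2.13 ± 0.44 SE). In that model the SE came almost wholly from a variance pooled over all probes, and not from the spread of RG470 itself. Without that term its unadjusted limma p was 0.0503, so the call rests on the model and on this pooling. RG470 lay above the floor in the 4 heart samples only, and its soleus values were raised to the floor, so both soleus log2 ratios were 0 in the fit and the difference comes from heart alone.

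RG334 had the lowest p for the duration difference. In the long pairs it had 6728 (heart) and 6306 (soleus) with heat, against 2870 and 3810 without, and in the short pairs 2998 and 5500 with heat, against 4256 and 6258 without. It was higher with heat in both long pairs and lower in both short pairs, a difference of 1.32 ± 0.34 (SE, limma adjusted p = 1). RG510 had the same signs, with 3391 and 2390 with heat in the long pairs against 2509 and 1496 without, and 1839 and 3216 with heat in the short pairs against 2980 and 4144 without. The 1496 of RG510 was raised to the floor in the fit.

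In the opposite direction, the 2 probes with the lowest p among those measured in all 8 samples had unadjusted p-values above 0.05 in limma. RG358 had 2128 (heart) and 2518 (soleus) with heat in the long pairs, against 3370 and 4144 without, while in the short pairs it had 2859 and 3678 with heat, against 2985 and 3544 without. R228 had 4044 (heart) and 3398 (soleus) with heat in the long pairs, against 3800 and 3471 without, while in the short pairs it had 4491 and 9370 with heat, against 2778 and 5826 without. Their differences between long and short were -0.69 ± 0.30 and -0.66 ± 0.30 (SE, limma adjusted p = 1 for both). Without normalization they were -0.32 and -0.37, and R228 came to -0.24 on the series table values. As deposited, R228 in short-trained soleus was 6846 with heat and 6716 without, and RG358 was 2770 with heat and 4150 without, so the picture in that pair depends on the scaling.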

How the data were processed

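Per the labels' protocols, RNA was isolated with Tri-Reagent and labelled with [32P]dATP following Clontech. The deposited per-sample values are linear intensities. For 3 of the 8 samples the unit was recorded as other, because some lines of the deposited files hold a probe with no second cell. The labels name no image software, background correction or scaling. The deposited series table holds a ratio-like relative value per probe and sample, whose centring stays unknown. It ranked probes as the intensities did (rank correlations 0.955 to 0.999, column medians 0.722 to 1.11) and served as an alternative.

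Empty cells (35.4%) were set to 1200. Quantile normalization was run over the 8 samples, values were raised to a common floor of 1774 (the highest of the samples' lowest measured normalized values) and taken to log2. Probes above the floor in at least 4 of 8 samples were fitted. Of these, 1 probe, made equal in all samples by the normalization, was left out, and 640 remained. Limma 3.58.1 in R 4.3.3 was used with 3 residual degrees of freedom (2 for the differences of the effect), two-sided, with Benjamini-Hochberg adjustment. A floored value understates a change. The number of arrays limits the precision, and no batch is labelled. Normalized intensities printed are before the floor and the pair counts use them without it.

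The comparison, the lists and the rules were chosen with earlier results of these data known. Named probes are the 2 per direction with the lowest p among those measured in all 8 samples, the 2 largest ratios per pair and direction, and the 2 measured most often in one treatment and least in the other. No gene list was tested because probes carry no gene names. Alternatives changed the scaling, floor, pseudocount, filter, source of values, model and the pairs included.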

Additional observations from a re-analysis of the deposited data

How the results depend on the processing

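Heat was called for 0 probes under each of the 18 alternatives, where the lowest limma adjusted p was 0.226 to 1 and 15 to 75 probes had an unadjusted p under 0.05. The soleus minus heart difference had 0 calls under each of 13 alternatives. The long minus short difference had 0 under 12 of 13 and 1 with both differences in 1 model. Leaving out any 1 pair gave 0 calls for each of these tests. No replicate numbers are labelled, and the pair block was given by tissue and duration. With no replicate block heat had 0 calls, with 15 at an unadjusted p under 0.05. The 12 named effects kept their direction and side of the threshold under all alternatives in which they were tested. Of the probes at an unadjusted p under 0.05 for heat, 23 of 54 were higher, against 35 of 58 under median scaling, 10 of 75 without normalization and 18 of 58 with the floor at 1200. Without normalization the median heat effect was -0.15, against -0.01 with quantile normalization, and the named effects of R154, RG205, RG026 and R631 kept their sign. The mean difference in probes measured was -51, -39.8 at a limit of 2400 (exact permutation p = 0.625) and -66.3 to -24 with a pair left out. It was -24 without the soleus short pair. The 145 2-fold differences (57.2% higher) became 136 (62.5%) under median scaling, 193 (34.7%) without normalization, 26 (73.1%) with 1200 added before the log, 245 (55.5%) with the series table and 474 (53.4%) at 1.5-fold. The 896 gains and losses became 236 when the measured value had to reach 2400. Most gains and losses thus lay near the limit, and 4 pairs limit what could be called.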
